A study of Mus musculus with 36 samples.

Results

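The genes described here encode the nuclear subunits of the respiratory chain and of ATP synthase in the mouse heart. Members were the rows of the count tables outside the mitochondrial genome whose symbols start with Nduf and a subunit letter and number, with Uqcr, with Cox4 to Cox8 followed by a, b, c or a digit, or with Atp5. Pseudogene symbols were left out. The rule took 77 of 20720 nuclear rows. By name, 36 belonged to complex I (Nduf), 8 to complex III (Uqcr), 16 to complex IV (Cox) and 17 to complex V (Atp5). Names and complexes did not fully match. Ndufa4 is now placed in complex IV, Cox7a2l joins complexes III and IV into supercomplexes, and Atp5s and Atp5sl are not core subunits. Cox4i1, Cyc1 and Ndufab1 are genuine subunits that the rule did not take.

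The respiratory chain passes electrons from NADH to oxygen and pumps protons across the inner mitochondrial membrane, and ATP synthase uses the return flow of protons to make ATP. Complex I takes electrons from NADH, complex III passes them to cytochrome c, and complex IV hands them to oxygen. A few subunits of each complex are encoded in mitochondrial DNA and the remainder, including all members here, in the nucleus. Heart muscle relies on this machinery more than most tissues, and it makes muscle versions of several complex IV subunits, Cox6a2, Cox7a1 and Cox8b, where most other cells make Cox6a1, Cox7a2 and Cox8a.

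Male C57BL/6 mice of 8 weeks had either a sham operation, ischemia-reperfusion (IR) with the left anterior descending coronary artery tied for 1 hour, or myocardial infarction (MI) with that artery tied for good. Cells came from the left ventricle at the site of the infarct, and no transgene or drug was named. The 12 sham plates were 4 from day 1 and 8 from day 14. The 19 IR plates were 9 from day 1, 7 from day 3 and 3 from day 14, and all 5 MI plates were from day 3. No sham plate was labelled day 3, although the study's methods describe sham hearts taken at day 3, so day 3 groups were compared with the mean of both labelled sham days. Each well of a plate received 1 sorted cell, and SORT-seq counts 3′ transcript ends by their unique molecular identifiers (UMIs). The labels do not tie plates to animals, and the study describes fewer mice than plates, so p-values measure the spread between plates.

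Of 13824 wells, 3146 held at least 1000 nuclear UMIs. Total UMIs per plate ranged from 176614 to 5551870. Wells were clustered without the member genes and named from marker lists, which gave 1131 cardiomyocyte-like, 447 endothelial-like, 631 macrophage-like, 300 fibroblast-like and 156 neutrophil-like cells, while 448 cells in 3 clusters stayed unnamed. Class names are rebuilt and are not the study's. Sham day 14 replicates 2 and 7 had well depths that followed each other (Spearman 0.911, next pair 0.650) and were counted as 1 sample by their mean. A further 17 wells of sham day 14 replicate 2 matched IR day 3 replicate 6, and 15 wells of IR day 1 replicate 9 matched replicate 5. Leaving these wells out changed no count below by more than 1.5 times. MI plates carry a protocol label of their own, so injury type and preparation cannot be told apart.

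In cardiomyocyte-like cells the members together held 3.39% to 8.57% of nuclear UMIs over 22 plates, with a median of 5.33%. The corresponding medians were 1.77% in endothelial-like cells (27 plates), 1.33% in macrophage-like cells (24 plates), 1.33% in fibroblast-like cells (20 plates) and 0.839% in neutrophil-like cells (14 plates). The lowest cardiomyocyte-like plate stood above every macrophage-like, fibroblast-like and neutrophil-like plate, but below the highest endothelial-like plate at 4.34%. Complex V and complex I gave most of the member UMIs in cardiomyocyte-like cells, with medians of 34.1% and 31.5% of them, against 24.2% for complex IV and 9.97% for complex III.

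**Figure D1:**
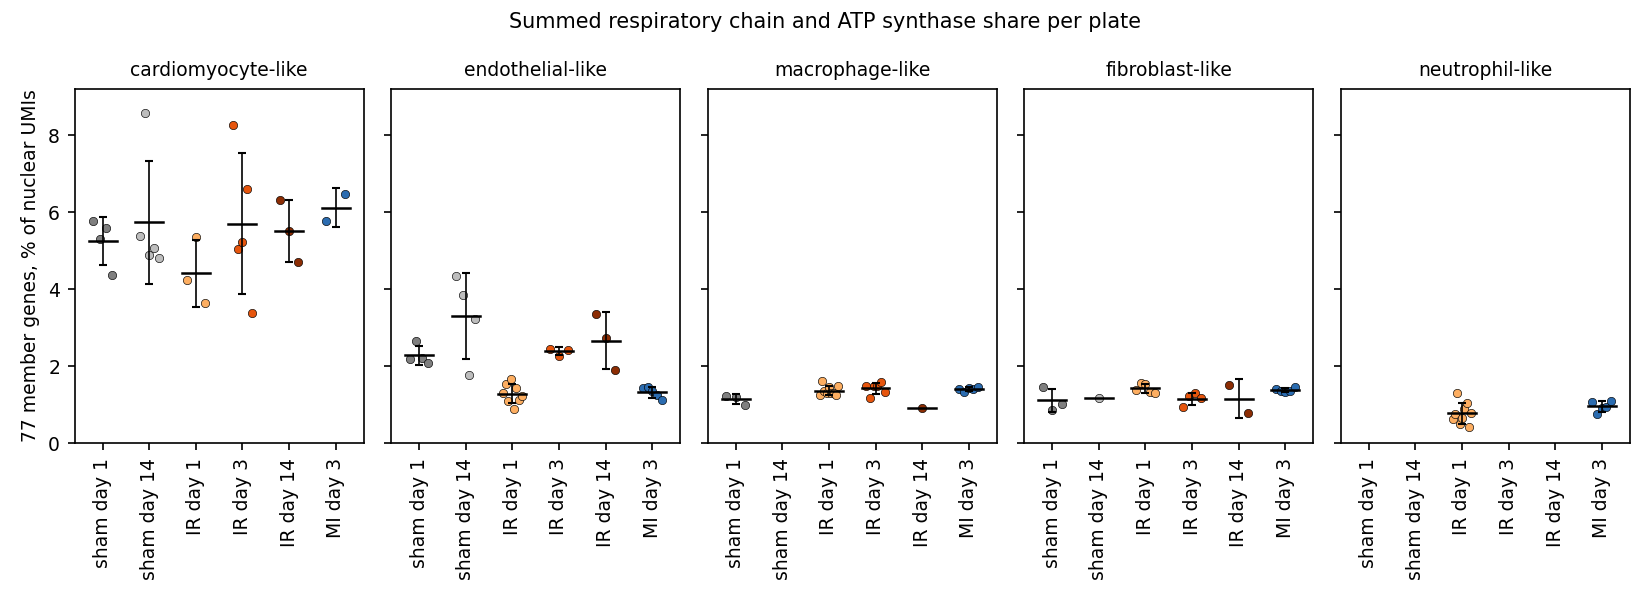
Share of nuclear UMIs (%, y axis) held by the 77 members in each plate (points), by class (panels) and group (x axis), for plates with at least 5 cells of the class. Lines are means and bars SD. Cardiomyocyte-like plates lie between 3.39% and 8.57% in all groups, and endothelial-like plates of IR day 1 and MI day 3 lie lower than those of the other groups.

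Each injured group of cardiomyocyte-like plates overlapped the sham plates in this summed share, while the MI plates lay above those of IR day 1. Sham plates had 5.26% ± 0.62 (SD, n = 4) at day 1 and 5.74% ± 1.60 (n = 5) at day 14. After IR the values were 4.41% ± 0.88 (n = 3) at day 1, 5.70% ± 1.83 (n = 5) at day 3 and 5.51% ± 0.80 (n = 3) at day 14, and the MI plates had 6.11% ± 0.50 (n = 2). The highest IR day 3 plate, replicate 3 at 8.26%, was a library of 5 cells and 6209 nuclear UMIs. The other IR day 3 plates lay at 3.39% to 6.60%. The share of all nuclear UMIs held by the row Rn45s, a ribosomal RNA precursor, differed between these plates. Rn45s took 1.57% and 6.94% of nuclear UMIs in the MI plates, 22.4% to 28.7% in the sham day 1 and IR day 1 plates, 3.27% in sham day 14 replicate 5, the plate with the highest member share, and 30.7% in IR day 3 replicate 7, the plate with the lowest. Without Rn45s in the totals the order of the sham and MI means turned, with 7.07% in sham day 1 and 7.54% in sham day 14 above 6.38% ± 0.27 in MI. IR day 1 was then at 5.88%, IR day 3 at 6.74% and IR day 14 at 6.77%. The part of Rn45s in the group means was not tested.

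Cox6a2, whose gene lies at chr7:128205435-128206366 (GRCm38), led all members in sham cardiomyocyte-like cells. Its level was 7166 ± 1033 UMIs per 1000000 nuclear UMIs (CPM, SD, n = 9 plates). UMIs tag 1 end of each transcript, so CPM compares molecules between genes without a length correction. Next came the catalytic beta subunit of ATP synthase, Atp5b (3254 ± 1282 CPM), Atp5g3, which encodes the ring subunit c (2632 ± 954 CPM), the alpha subunit Atp5a1 (2621 ± 1059 CPM) and the stalk subunit Atp5h (1554 ± 437 CPM). Atp5b was at or above Atp5a1 in each of the 9 sham plates, while Atp5g3 and Atp5a1 changed order between plates. These differences were not tested. Positions 6 to 15 ran from 1414 down to 951 CPM and included Atp5g1, Ndufa4, Cox5a, Cox6c, Uqcrq, Atp5c1, Uqcrc1, Atp5o and Uqcrfs1. The first 15 genes made up 51.4% of the summed member level.

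The order of members was partly shared with other cells. In IR day 3, the group with many cells of both classes, 71 of the 75 members with a ratio were higher in cardiomyocyte-like than in macrophage-like cells, with a median ratio of 3.43. The muscle isoforms stood out at 29.0 for Cox6a2, 25.8 for Cox8b and 23.3 for Cox7a1, and the Rieske iron-sulfur protein Uqcrfs1 followed at 10.9. The other way round, Cox6b2, with 11 macrophage UMIs, had a ratio of 0.143, Cox6a1 of 0.227 and Cox8a of 0.556. The third ubiquitous isoform, Cox7a2, was higher in cardiomyocyte-like cells, with a ratio of 2.12. Over all 77 members the Spearman correlation between the levels in both classes was 0.684, as a description across genes that share plates. Cox8a and Cox6a1 were among the 5 most abundant members in macrophage-like, fibroblast-like and neutrophil-like cells, while Cox7a2 was not. Cox8a was the most abundant member in neutrophil-like cells (547 ± 186 CPM, n = 14) and the third in macrophage-like cells (488 CPM, SD 128.7, n = 24), where Atp5b led with 648 ± 149 CPM.

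At day 3 after MI, Cox6a2 fell and Cox8a rose in cardiomyocyte-like cells. Cox6a2 CPM were 8045, 6298, 7654 and 7806 in the sham day 1 plates and 7423, 8728, 5649, 5936 and 6955 in the sham day 14 plates, but 1621 and 1992 in the MI plates. The MI plates lay below every other cardiomyocyte-like plate, and the fitted change was −2.74 ± 0.53 on the log2 scale (SE, edgeR quasi-likelihood test, Benjamini-Hochberg adjusted p = 2.02e-05). Cox8a CPM were 189.6, 215, 178 and 158 in sham day 1, 155, 195, 91.1, 93.0 and 139 in sham day 14, and 887 and 769.5 in MI. Both MI plates were above all 20 others, with a change of 1.58 ± 0.35 (adjusted p = 0.000195). These were the only members that kept their call in all 19 alternative fits of the MI comparison, with adjusted p up to 0.0459 for Cox6a2 and 0.0113 for Cox8a.

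Of 72 members tested in MI against sham, 16 fell and 3 rose, together 26.4% of them, where 36.1% of all 4363 genes tested were called and 22.2% were called lower. The share of members called was therefore below that of all genes in either direction and equal to it for lower calls. The 3 that rose were all small complex IV subunits, Cox8a, Cox7c (1.25 ± 0.43, adjusted p = 0.0183) and Cox6a1 (1.13 ± 0.43, adjusted p = 0.0316). Of the 35 complex I members tested, 11 fell and 0 rose. The median change was −0.35 over the members and −0.25 over all genes. Of all genes called, 604 were higher and 969 lower, and with relative log expression factors 815 were higher and 779 lower, with a median over all genes of 0.04.

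Cox6a2 had the largest fall, and complex I gave 11 of the 16 members that fell. Ndufs1, the large iron-sulfur subunit of its catalytic arm, was at 313 to 404 CPM in sham day 1, 346 to 899 in sham day 14, and 228 and 113 in MI. The accessory subunit Ndufa9 was at 272 to 473 CPM in the 9 sham plates, and at 165 and 136 in MI. Neither gene's MI plates overlapped the sham plates, and the changes were −2.11 ± 0.49 (adjusted p = 0.000383) and −2.06 ± 0.49 (adjusted p = 0.000508). The accessory subunits Ndufa1 (−1.92 ± 0.47) and Ndufa13 (−1.81 ± 0.46) came next. Ndufa1 was at 329 and 362 CPM in MI, below all sham plates. Ndufa13 was at 469 and 249 CPM in MI, which overlaps sham day 14 with its lowest plate at 443. Of the 12 genes of the catalytic core, 7 fell, where 22.2% of all genes were called lower. Among them were Ndufs1, the NADH-binding Ndufv1, the core proteins Uqcrc1 and Uqcrc2 of complex III, and Atp5a1 and Atp5b. Atp5a1 was at 1571 and 1720 CPM in MI, within the sham range of 1417 to 4875. Atp5b was at 1862 and 2829 CPM, within its sham range of 1640 to 5385. Leaving out 1 plate moved Atp5b to between −1.17 and −0.45. Ndufs3, Ndufs7, Ndufs8, Ndufv2 and Uqcrfs1 did not pass, with changes from −0.62 to 0.17.

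The MI group had 2 plates of 6 cardiomyocyte-like cells each. Without MI replicate 2 the fit called 4 members and without replicate 3 it called 5. Without replicate 3 the changes were −1.16 for Ndufs1, −1.35 for Ndufa9 and −0.87 for Ndufa13, none past the threshold, and 2.06 for Cox6a1. Without sham day 14 replicate 5 that of Cox7c was 1.87. It called 12 without sham day 1 replicate 1, 2 or 3 or sham day 14 replicate 5 or 8. All 19 MI cells fell in the cluster led by Sprr1a, which held 1.45% to 3.88% of sham cells of this class. Mitochondrially encoded UMIs were 2.39 and 11.2 per 100 nuclear UMIs in the MI plates, against 195 to 563 in the other cardiomyocyte-like plates. The part of cluster and preparation in these changes was not tested.

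**Figure D2:**
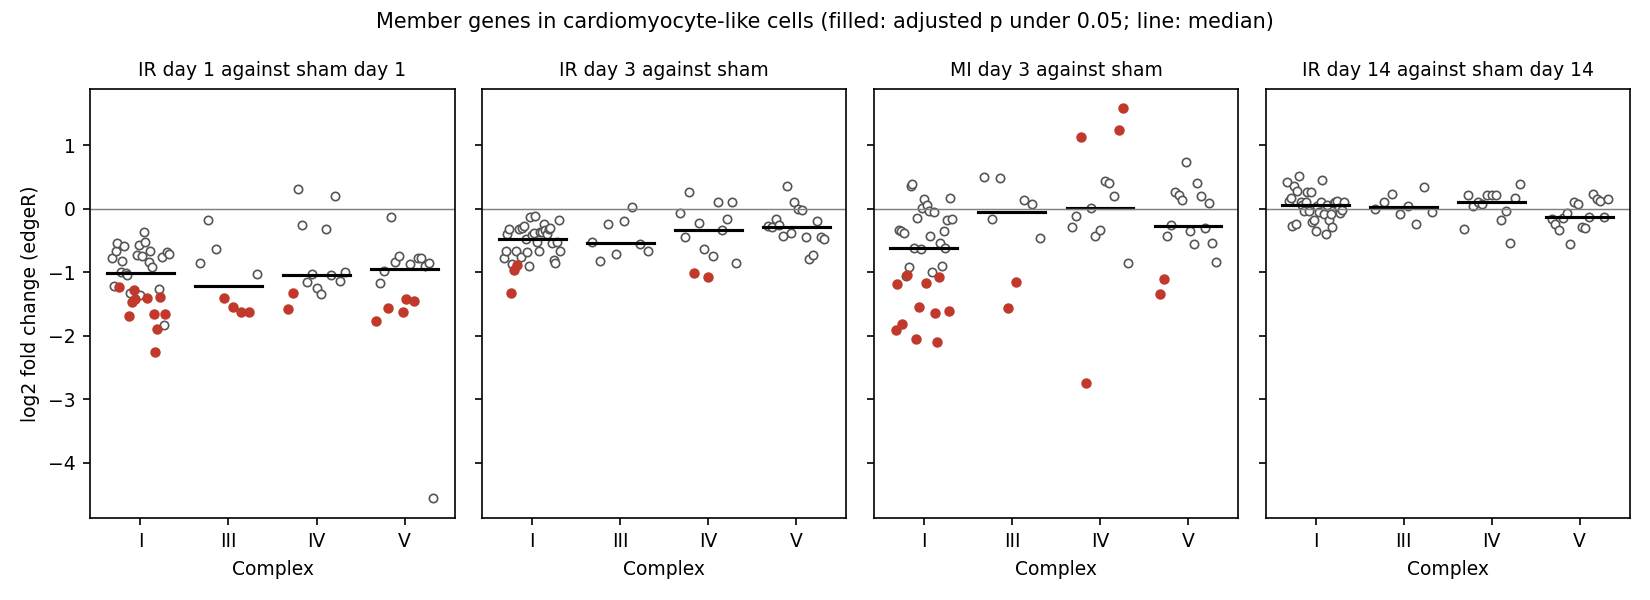
Fitted log2 fold change (y axis) of each tested member in cardiomyocyte-like cells, by complex (x axis), in 4 comparisons (panels). Filled points have an adjusted p under 0.05 (edgeR) and lines are medians. Calls in MI day 3 fall mostly in complex I, with 3 complex IV genes above 0, and 0 members are called in IR day 14. Atp5s, at the bottom of the IR day 1 panel, had 0 UMIs in that group and carries no fold.

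At day 3 after IR the same class showed mostly downward differences. Of 72 members, 5 fell and 0 rose, or 6.94%, where 6.07% of all genes were called and 2.04% were called lower. These were Ndufa13 (−1.33 ± 0.30, adjusted p = 0.00124), Cox7a1 (−1.08 ± 0.32, adjusted p = 0.0242), Cox6a2 (−1.01 ± 0.32, adjusted p = 0.0354), Ndufa3 (−0.97 ± 0.31, adjusted p = 0.0388) and Ndufa5 (−0.89 ± 0.29, adjusted p = 0.0473). Values below 0 were found for 66 of 72 members, including all 35 of complex I, and the median was −0.41 against −0.02 over all genes.

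Ndufa13, an accessory subunit also known as GRIM-19 with its gene at chr8:69894163-69902558 (GRCm38), was at 755 to 1064 CPM in sham day 1 and 443 to 889 in sham day 14. In IR day 3 it was at 322, 407, 481, 650.1 and 177 CPM. The IR plates overlapped those of sham day 14 but not those of sham day 1. Cox6a2 was at 4509.6, 4851, 4677, 5748 and 3928 CPM in IR day 3, and 1 of these plates reached the sham range. Ndufa13 kept its call in 23 of 24 alternatives, while the other 4 lost it in 7 to 14.

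Of all genes called in IR day 3, 176 were higher and 89 lower, or 164 and 46 with DESeq2. The count of members called depended on which plates and cells entered. It was 1 without sham day 1 replicate 1, sham day 14 replicate 1 or 5 or IR day 3 replicate 7, 2 without sham day 1 replicate 2 or 3 or sham day 14 replicate 8, 3 without IR day 3 replicate 4 or 5, and 10 without sham day 14 replicate 6, a library of 7 cells. With at least 10 cells per plate it was 13, all lower. The cluster led by Sprr1a held 58.4% of the IR day 3 cells, and without it 1 member was called, Ndufa13 at −1.30 ± 0.26 (adjusted p = 0.00141).

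MI and IR were compared directly at day 3, and complex IV members were called in both directions. Cox8a (1.48 ± 0.39, adjusted p = 0.00334), Cox7c (1.41 ± 0.48, adjusted p = 0.0243) and Cox7a2 (1.17 ± 0.42, adjusted p = 0.0342) were higher after MI. Ndufa9 (−1.79 ± 0.51, adjusted p = 0.00647), Ndufs1 (−1.77 ± 0.51, adjusted p = 0.00674), Cox6a2 (−1.73 ± 0.51, adjusted p = 0.00858) and Ndufc2 (−1.41 ± 0.48, adjusted p = 0.0241) were lower. The muscle isoforms Cox7a1 (0.74 ± 0.45) and Cox8b (0.0015 ± 0.43) did not pass the test. The 7 of 72 members called, 9.72%, compare with 22.9% of all genes called, 316 higher and 685 lower, or 293 and 386 with DESeq2. Without MI replicate 2 the count was 1, without MI replicate 3 or IR day 3 replicate 7 it was 4, and without IR day 3 replicate 3 it was 11. Without MI replicate 3 Ndufs1 was at −0.92, Ndufa9 at −1.16 and Ndufc2 at −0.60, none of them called. Within the cluster led by Sprr1a, which both groups share, 16 members were called. The share of all genes called in that fit is not given here, and the 22.9% belongs to the fit of all cells. The same 4 genes were lower there, and 12 were higher, Ndufa7 (1.88 ± 0.53), Cox8a (1.67 ± 0.47) and Cox7a2 (1.59 ± 0.48) most of all.

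By day 14 after IR no member was distinguishable from sham. Of 72 members, 0 were called against sham day 14, 0 had an unadjusted p under 0.05, and DESeq2 called 0 with 3 under an unadjusted 0.05, where 0.206% of all genes were called. The changes ranged from −0.55 to 0.52 with a median of 0.05. Cox6a2 was at 7395, 7836 and 6199 CPM and Ndufa13 at 916, 718 and 767 CPM. All these values lay within the range of the 9 sham plates, and 1 of the Ndufa13 values lay above the 889 CPM that sham day 14 reached. Against IR day 3, 61 of 72 members had values above 0 with a median of 0.42, against 0.04 over all genes, but 1 was called, Ndufa13 (1.30 ± 0.36, adjusted p = 0.0162), where 3.69% of all genes were called. With the relative factors the medians were 0.24 and −0.08, and the genes called went from 53 higher and 108 lower to 33 and 132. The Ndufa13 call was lost without IR day 3 replicate 7 or any of the 3 IR day 14 plates, which left 0 members. IR day 3 plates are shared by this comparison and by that of IR day 3 with sham.

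In the first day after IR, 22 of 72 members fell and 0 rose in cardiomyocyte-like cells, 30.6% of them, where 12.7% of all genes were called and 8.96% were called lower. The cluster led by Sprr1a held 75.0% of IR day 1 cells and 3.88% of sham day 1 cells of this class. Within that cluster alone 0 members were called by edgeR and 5 had an unadjusted p under 0.05, where 23 of 2004 genes were called, and Ndufs1 was at 0.033. That fit had 1 sham day 1 plate and 2 IR day 1 plates with enough cells, and the lone plate was assumed to vary like the other groups. Over all cells, 8 of the 12 genes of the catalytic core were called, among them Ndufs3 (−1.89 ± 0.50, adjusted p = 0.00626), Atp5a1 (−1.77 ± 0.44, adjusted p = 0.00373), Ndufv1, Ndufs1, Uqcrfs1, Uqcrc2 and Uqcrc1. Atp5a1 was at 2424, 1894, 2407 and 1417 CPM in sham day 1 and 622, 1521 and 768 in IR day 1, and 1 IR plate reached the sham range. Cox6a2 showed no such drop, at 10077, 11350.1 and 8233 CPM in IR day 1 against 6298 to 8045 in sham day 1, so all IR plates lay above all sham plates. Its fitted change was −0.25 ± 0.42 with trimmed-mean scaling and 0.44 ± 0.32 with the relative log expression factors of edgeR, neither past the threshold. Next among the members called came the accessory subunit Ndufa7 (−1.69 ± 0.60) and Ndufv1 (−1.67 ± 0.46). Atp5g2, 1 of the genes for the ring subunit of ATP synthase, was also called (−1.63 ± 0.57, adjusted p = 0.0418), at −1.11 without IR day 1 replicate 1 and −2.56 without replicate 3.

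The number of calls on day 1 depended on the scaling. Normalization by trimmed means left the median of all genes at −0.58 and that of the members at −1.03. With the relative log expression factors of edgeR these medians were 0.08 and −0.34, and 2 members were called, while DESeq2 called 4. Of all genes called, 161 were higher and 391 lower with trimmed means, 323 and 131 with the relative factors, and 338 and 85 with DESeq2. The 3 IR day 1 plates held 5 to 12 cells of this class. The fit called 7 members without sham day 1 replicate 1 or 3 or IR day 1 replicate 3, 8 without IR day 1 replicate 2, and 12 without sham day 1 replicate 2. The median of the members lay below that of all genes under both scalings.

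Muscle and ubiquitous isoforms of complex IV were next compared as shares within each pair, which do not depend on library size. Cox8b made up 75.8% ± 3.0 (SD, n = 4) of the Cox8b and Cox8a UMIs in sham day 1 and 73.5% ± 7.3 (n = 4) in sham day 14. After IR it made up 59.1% ± 5.3 (n = 4) at day 3 and 76.1% ± 2.1 (n = 3) at day 14, and after MI 34.8% ± 2.1 (n = 2). The IR day 3 plates were at 61.6%, 54.8%, 65.3% and 54.7%, and all but 1 of the 8 sham plates, at 62.7%, lay above them. The MI plates, at 36.4% and 33.3%, lay below all others.

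With an exact two-sided permutation test, Cox8b differed between IR day 3 and sham by −15.6 percentage points (p = 0.00808, adjusted over the 12 isoform comparisons 0.0970). The difference between MI and sham was −39.8 points (exact permutation p = 0.0444, adjusted 0.114), and this p is the smallest that 2 against 8 plates allow. Cox6a2 made up 98.9% ± 0.6 (n = 9) of its pair in sham and 85.4% ± 7.6 (n = 2) in MI (exact permutation p = 0.0364, the smallest possible, adjusted 0.114). Its MI plates were at 80.0% and 90.7%, and the difference of −13.5 points became −18.9 or −8.19 when the plate at 90.7% or at 80.0% was left out. Cox7a1 was at 69.7% ± 4.9 (n = 8) and 56.9% ± 0.5 (n = 2) (exact permutation p = 0.0444, the smallest possible, adjusted 0.114). None of the 12 comparisons passed the adjusted threshold of 0.05. With at least 10 cells per plate, or without the 5-cell IR day 3 replicate 3, Cox8b and Cox6a2 in IR day 3 against sham did pass. The Cox8b shares are the same there, since that plate had too few UMIs of the pair, and only its adjusted p moved. In levels, Cox8b was at 507 and 384.8 CPM in MI and 182 to 741 CPM in sham, so the lower share after MI went with the higher Cox8a.

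**Figure D3:**
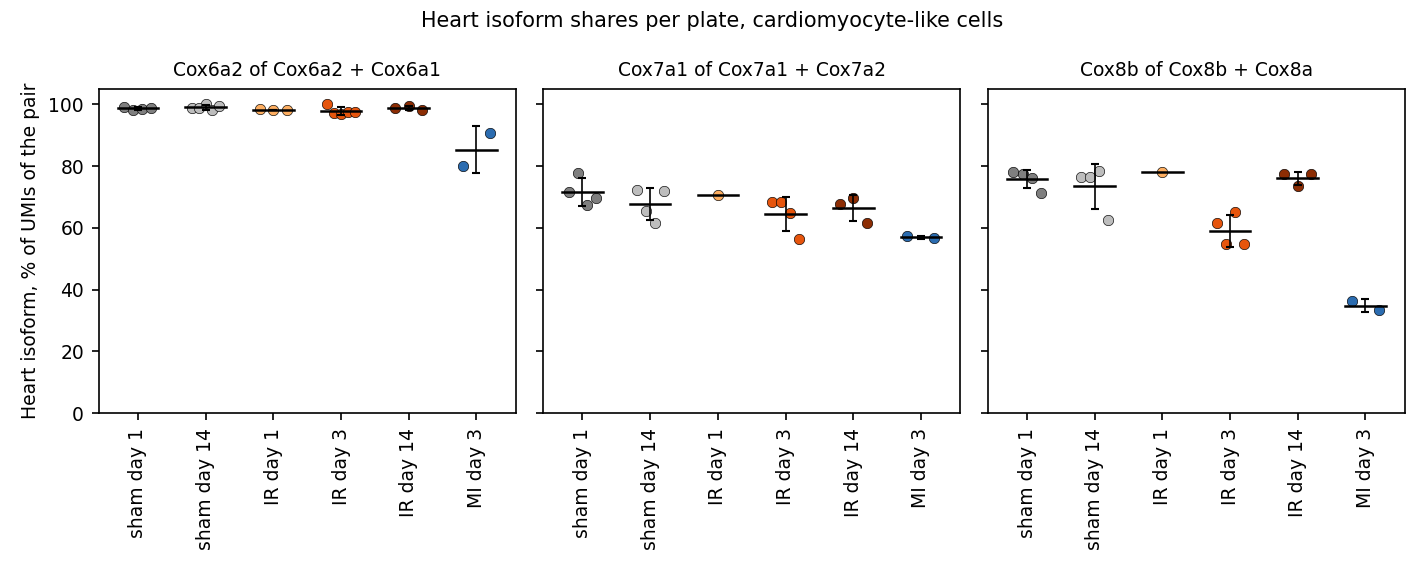
UMIs of the muscle isoform as a percentage of its pair (y axis) in cardiomyocyte-like cells of each plate (points), by group (x axis), for plates with at least 20 UMIs of the pair. Lines are means and bars SD, and IR day 1 has 1 plate in the middle and right panels. In the right panel the IR day 3 plates lie at 54.7% to 65.3% and the MI plates at 33.3% and 36.4%, against 62.7% to 78.6% in sham.

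The promoters of this pair are shown because Cox8a rose after MI while Cox8b did not pass the test (−0.86 ± 0.43, adjusted p = 0.109). Both come from RefSeq (GRCm38.p6, the build of the count tables), run from 250 bases before the gene start to 50 after it, and are read 5′ to 3′ on the gene's own strand, the minus strand for all 3 genes. Cox6a1, which also rose after MI, is added, while the table used has no entry for Cox6a2. Capitals mark matches to CCGGAAGT, the core site of ETS factors such as GABPA, or to the palindromic site of NRF1, on either strand.
Cox8b, chr7:140900397-140900696: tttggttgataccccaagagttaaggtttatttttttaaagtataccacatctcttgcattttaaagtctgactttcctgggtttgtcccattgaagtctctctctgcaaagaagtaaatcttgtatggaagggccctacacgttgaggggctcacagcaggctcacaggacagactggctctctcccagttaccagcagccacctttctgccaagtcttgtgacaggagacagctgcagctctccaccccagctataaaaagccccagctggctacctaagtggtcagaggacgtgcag
Cox8a, chr19:7217567-7217866: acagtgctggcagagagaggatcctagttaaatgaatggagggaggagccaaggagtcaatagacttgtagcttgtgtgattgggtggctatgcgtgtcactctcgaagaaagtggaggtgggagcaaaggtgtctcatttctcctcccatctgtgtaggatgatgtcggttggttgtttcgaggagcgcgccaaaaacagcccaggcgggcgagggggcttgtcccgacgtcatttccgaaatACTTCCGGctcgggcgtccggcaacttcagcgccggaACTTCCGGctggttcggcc
Cox6a1, chr5:115348909-115349208: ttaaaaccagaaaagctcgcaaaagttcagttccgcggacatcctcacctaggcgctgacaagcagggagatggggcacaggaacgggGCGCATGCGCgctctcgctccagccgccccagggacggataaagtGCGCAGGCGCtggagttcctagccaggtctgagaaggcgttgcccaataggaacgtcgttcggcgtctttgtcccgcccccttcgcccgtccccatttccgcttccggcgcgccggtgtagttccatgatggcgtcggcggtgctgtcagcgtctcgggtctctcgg

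Cox8a had the ETS word at bases 245 to 252 and 282 to 289 of this window, and Cox6a1 the NRF1 word at 89 to 98 and 134 to 143. Cox8b had none of the words searched. The same held for Cox7c, which also rose after MI, and for Cox7a2, higher in MI than in IR day 3. Their promoters are not printed. An absent word says only that these letters are not in this window. Of the 77 members, 65 had an entry. The NRF1 word was found in 13 of these, and in 4.78% of all 27025 promoters of this length. For the YY1 word AAGATGGC the shares were 15.4% and 2.88%, for the ERR word AAGGTCA 9.23% and 4.66%, for the ETS word 7.69% and 4.00%, and for the MEF2 word 1.54% and 3.70%. Both strands were searched and overlaps between words were allowed. All 10 members with the YY1 word belonged to complexes I and V. Matches are letters in a window and were not tested for binding.

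Neighbours of these complexes that the rule left out were read from fixed lists. In MI against sham, where 36.1% of all genes were called and 22.2% called lower, 1 of 4 complex II genes fell, the catalytic Sdha (−1.64 ± 0.48). Of 11 other subunits and carriers tested, the complex IV subunit Cox4i1 (−2.05 ± 0.46), the mitochondrial creatine kinase Ckmt2 (−2.38 ± 0.50) and the ATP/ADP carrier Slc25a4 (−1.13 ± 0.47) fell, and the channel Vdac2 rose (1.22 ± 0.34). Among 23 assembly factors tested, 5 rose and 2 fell. The 3 largest rises were those of the complex IV factors Coa3 (1.59 ± 0.48), Coa5 (1.29 ± 0.44) and Cox14 (1.27 ± 0.42). The complex I factor Acad9 fell (−2.73 ± 0.75), with few UMIs in the MI plates, at 25.3 and 45.3 CPM. It was at 130 to 401 CPM in sham day 1 and at 31.0 to 164 in sham day 14, which overlaps MI. Foxred1 had 0 UMIs in the MI plates and 68.3 CPM in sham, at least 2.80-fold lower with 3 counts over the group as the floor. Of 8 regulators tested, 3 fell and 0 rose: Ppargc1a (−2.91 ± 0.70) and Ppargc1b (−2.37 ± 0.75), coactivators of mitochondrial gene expression, and the fatty acid receptor Ppara (−1.85 ± 0.68). With relative log expression factors, an alternative for these lists added after the calls had been seen, 3 carriers and other subunits rose and 3 fell, 6 assembly factors rose and 2 fell, and Ppara was no longer called.

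On day 1 after IR, 12.7% of all genes were called and 8.96% called lower. Ppargc1b (−3.51 ± 1.11), Ppara (−3.21 ± 1.08) and Ppargc1a (−2.60 ± 0.77) were also lower than in sham day 1. Few UMIs underlie these folds. The IR day 1 plates were at 0 to 26.5, 0 to 41.5 and 0 to 79.4 CPM, in that order, below all sham day 1 plates. Lower too were 6 of 11 carriers and other subunits, Vdac3 (−2.36 ± 0.59), Ckmt2 (−2.15 ± 0.47) and Vdac1 (−1.97 ± 0.51) most of all, and Sdhb (−1.66 ± 0.51). Among the assembly factors, the copper chaperone Cox19 rose (2.73 ± 0.90), and Ndufaf1 of complex I was called lower, with 0 UMIs in IR day 1 and 50.3 CPM in sham day 1, at least 1.35-fold lower with 3 counts over the group as the floor. Some of these day 1 calls depended on the scaling. With relative log expression factors 5 of the 11 carriers and other subunits were still lower and Cox19 higher, and Ndufaf1 and all genes of complex II and of the regulators were not called. In MI against IR day 3, where 22.9% of all genes were called, Sdha (−1.47 ± 0.50), Ckmt2 (−1.94 ± 0.51), Cox4i1 (−1.35 ± 0.47) and Ppargc1a (−2.49 ± 0.74) were lower after MI, as was Foxred1 with its 0 UMIs, and Cox14 (1.51 ± 0.46) and the copper chaperone Cox17 (1.41 ± 0.41) were higher. All 7 were also called with the relative factors, and Vdac2, Cycs and Coa3 with them. In IR day 14 against sham or IR day 3, 0 genes of the 4 lists were called under either scaling. In IR day 3 against sham, where 6.07% of all genes were called, 0 were called with trimmed means, and Slc25a5 and Coa5 were called higher with relative factors.

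Endothelial-like cells showed a broad drop of members after MI, together with a drop of cardiomyocyte RNA. In MI against sham, 60 of 70 members fell and 0 rose, 85.7% of them, where 36.4% of all genes were called and 18.3% were called lower. The median was −1.18 against 0.03 over all genes. Cox6a2 (−8.44 ± 0.68, adjusted p = 1.15e-11), Cox8b (−7.26 ± 0.64, adjusted p = 6.80e-11) and Cox7a1 (−5.56 ± 0.54, adjusted p = 5.51e-10) led, followed by Ndufa4 (−2.06 ± 0.33) and Ndufa5 (−2.05 ± 0.38). Cox6a2 was at 1123, 1763, 1363 and 2697 CPM in sham day 1, 3639.7, 2937, 656 and 1928 in sham day 14, and 4.77, 3.00, 7.29, 4.09 and 25.0 in MI. Cox8b had 1 UMI in MI and 266 in sham, which per nuclear UMI is 342-fold lower in MI, with an exact 95% interval of 60.8 to 13547 that covers counting error only.

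The 12 cardiomyocyte markers moved the same way. They held 1.42% to 1.93% of nuclear UMIs in endothelial-like cells of sham day 1 and 1.09% to 4.04% in sham day 14, but 0.0333% to 0.778% in IR day 1 and 0.00501% to 0.0306% in MI. Myh6, the adult heart myosin, gave 1804 UMIs in sham day 1 and 1 in MI, and Ryr2, the calcium release channel of heart muscle, gave 201 and 0. Over the 27 endothelial-like plates the Pearson correlation between marker share and member share was 0.94 (Spearman 0.87), as a description of plates that differ in depth and group. Most sham cells were in the cluster led by Slc26a10 (70.2% in sham day 1), and most MI cells in that led by Mest (87.7%). The median depth per cell was 3061 nuclear UMIs in sham day 1 and 16645 in MI. Among the endothelial-like clusters that led by Mmrn1 had the highest member share, 2.62% to 7.39% over its plates, with 158 to 703 mitochondrial UMIs per 100 nuclear ones. It held 26.3% of sham day 1 cells, 28% of sham day 14 cells and 5.26% of MI cells. The part of cluster make-up in the member changes was not tested.

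**Figure D4:**
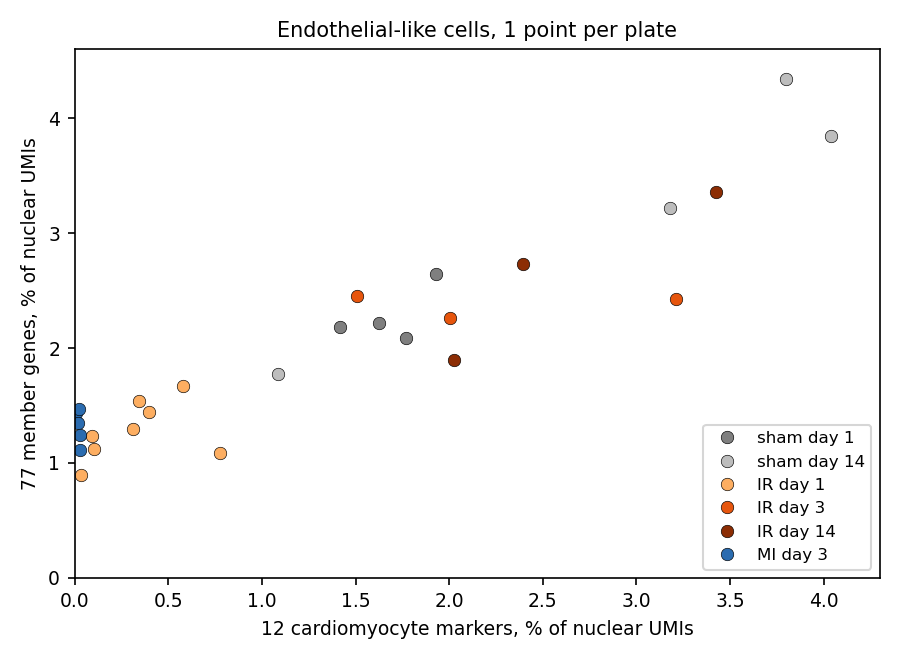
Share of nuclear UMIs held by the 77 members (%, y axis) against that of the 12 cardiomyocyte markers (%, x axis) in endothelial-like cells, 1 point per plate, coloured by group. MI and IR day 1 plates lie at the lower left, with marker shares under 0.8%, and sham day 14 plates reach 4.04% and 4.34%.

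The fit was therefore repeated with wells in which these markers held under 1% of nuclear UMIs, a limit chosen after the marker levels had been seen. Of 68 members tested, 4 were then called in MI against sham, 5.88%, where 15.1% of all genes were called. Cox6a2 (−5.98 ± 0.57, adjusted p = 2.48e-09), Cox8b (−4.45 ± 1.48, adjusted p = 0.0362) and Cox7a1 (−3.24 ± 0.91, adjusted p = 0.0123) stayed lower, and Cox8a was higher (1.34 ± 0.39, adjusted p = 0.0153). Of the 57 members that had fallen and were tested again, 24 changed sign, and the median of all members was 0.004 against 0.26 over all genes. The summed share in these wells was 1.5% ± 0.18 (n = 4 plates, 53 cells) in sham day 1, 1.35% ± 0.25 (n = 2, 14 cells) in sham day 14 and 1.32% ± 0.14 (n = 5, 57 cells) in MI. The markers still held 0.580% of UMIs in sham day 1 and 0.0209% in MI in these wells.

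**Figure D5:**
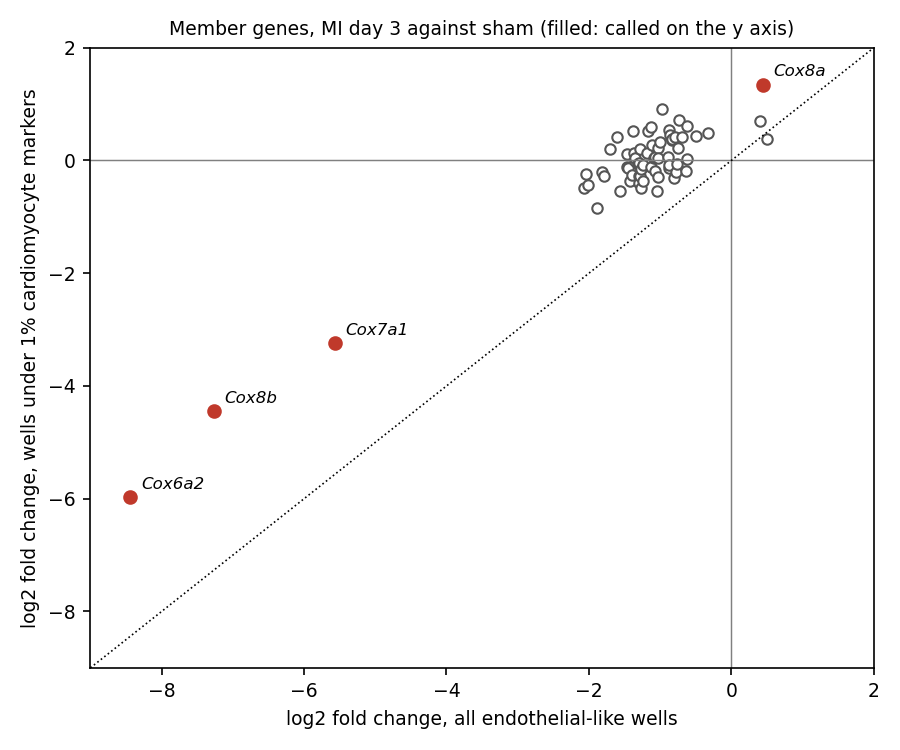
Log2 fold change of each member in MI day 3 against sham in endothelial-like cells, fitted with all wells (x axis) and with wells holding under 1% cardiomyocyte marker UMIs (y axis). Filled points are called on the y axis, and the dotted line marks equal values. Most members lie near −1 on the x axis and near 0 on the y axis, while Cox6a2, Cox8b and Cox7a1 stay at −5.98 to −3.24.

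On day 1 after IR, 31 of 70 members fell in endothelial-like cells and 0 rose, 44.3%, where 15.2% of all genes were called and 9.23% were called lower. Cox6a2 (−3.00 ± 0.43, adjusted p = 1.06e-05) and Cox8b (−2.80 ± 0.45, adjusted p = 4.08e-05) led again, with the complex III hinge protein Uqcrh (−2.02 ± 0.34, adjusted p = 7.61e-05), Cox7a2l (−1.97 ± 0.40, adjusted p = 0.000661) and Cox7a1 (−1.91 ± 0.44, adjusted p = 0.00258). In wells under 1% of marker UMIs, 2 members were called, where 3.67% of all genes were called. They were Cox7a2l (−1.89 ± 0.42, adjusted p = 0.00708) and Uqcrh (−1.38 ± 0.37, adjusted p = 0.0270).

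Changes after MI were also compared between classes within plates that held both, with 2 MI plates and 8 sham plates. For 9 of 73 members the change was higher in cardiomyocyte-like than in endothelial-like cells and for 0 it was lower, 12.3%, where 14.3% of all genes were called and 6.50% were called higher. Of all genes, 365 were called higher and 437 lower, or 266 and 611 with the relative factors. Among the members called, the largest differences were those of Cox8b (7.25 ± 1.05, adjusted p = 1.05e-09), Cox6a2 (5.66 ± 0.94, adjusted p = 1.39e-07) and Cox7a1 (4.36 ± 0.68, adjusted p = 1.64e-08), followed by Atp5g1 (1.94 ± 0.50, adjusted p = 0.00210) and Ndufc1 (1.53 ± 0.51, adjusted p = 0.0258). Cardiomyocyte markers fell in the endothelial-like wells, and their part in these differences was not tested. The count was 3 without either MI plate and 4 without sham day 1 replicate 3 or sham day 14 replicate 1. For IR day 3 against sham, 0 members were called and 0 had an unadjusted p under 0.05, with 3 IR plates, where 0.552% of all genes were called, 24 higher and 7 lower, or 16 and 9 with the relative factors.

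In macrophage-like cells, fewer members than genes overall were called between days. From IR day 1 to IR day 3, 8 of 69 members rose and 2 fell, 14.5%, where 26.8% of all genes were called. Cox6a2 (1.19 ± 0.39, adjusted p = 0.0238), Cox7a2l (1.02 ± 0.29, adjusted p = 0.00786), the stalk protein Atp5o (0.81 ± 0.22, adjusted p = 0.00556) and Uqcrc2 (0.72 ± 0.26, adjusted p = 0.0385) rose most, and Cox6a2 was at 0.76 and no longer called without IR day 3 replicate 4. Cox7c (−0.80 ± 0.27, adjusted p = 0.0292) and Atp5g1 (−0.73 ± 0.23, adjusted p = 0.0205) fell. Atp5a1 (0.61 ± 0.17, adjusted p = 0.00717) was at 365 to 610.4 CPM in the 9 IR day 1 plates, with a median of 496, and at 637 to 1128 CPM in the 6 IR day 3 plates, with a median of 675, so the groups did not overlap.

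The cluster led by Cd74 held 94 of 114 macrophage-like cells in IR day 1 and that led by Gpnmb 143 of 194 in IR day 3. Cardiomyocyte markers held a mean of 0.0522% of UMIs in IR day 1 and 0.227% in IR day 3. In wells under 1% of them 6 members were called, 8.7%, with Cox6a2 no longer among them. Of the 10 members called in all wells, 0 changed sign there. The share of all genes called in such wells is not given here, and the 26.8% belongs to all wells. With all wells the count was 6 without IR day 1 replicate 5 or 8 or IR day 3 replicate 6, and 4 without IR day 3 replicate 7. Between MI and IR at day 3, 1 of 69 members, 1.45%, was called, Cox6a2 (−3.30 ± 0.40, adjusted p = 1.73e-06), where 9.36% of all genes were called. It had 142 UMIs in MI and 502 in IR, 18.2 and 221 CPM when pooled. Cardiomyocyte markers held a mean of 0.0349% of UMIs in MI. Without IR day 3 replicate 4 or 6 the count was 2.

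In fibroblast-like cells, 4 of 71 members were called between MI and IR at day 3, 5.63%, where 8.96% of all genes were called, 208 higher and 325 lower, with 141 of 525 calls higher under the relative factors. Cox8b (−5.08 ± 1.09, adjusted p = 0.00425) and Cox6a2 (−4.99 ± 0.63, adjusted p = 9.84e-06) were lower after MI. Cox7a2 (1.23 ± 0.34, adjusted p = 0.0223) and the ATP synthase subunit Atp5j2 (1.00 ± 0.30, adjusted p = 0.0373) were higher. Cox7a2 was at 167 CPM or more in all 5 MI plates, with a median of 173, and at 20.4, 93.5, 74.6 and 61.8 in IR, with no overlap. Cardiomyocyte markers held a mean of 0.0137% of UMIs in MI and 0.366% in IR. In wells under 1% of them Cox6a2, Cox7a2 and Atp5j2 were called and Cox8b was not tested. Without IR day 3 replicate 3 or 7 the count was 2. The cluster led by Cxcl5 held 132 of 133 MI cells and 37 of 57 IR day 3 cells.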

How the data were processed

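UMI count tables, as deposited by the authors, held whole counts per gene and well of 36 plates. Per the study's methods and the submitters' processing notes, reads were aligned with BWA (version not given in the sources used here) to GRCm38/mm10 and counted by 6-base UMIs, so 4096 is the highest value. Near-identical copies and pseudogenes make the assignment of some members uncertain. Members, lists and classes were chosen with earlier results of these data known.

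Wells with at least 1000 nuclear UMIs were clustered without members (scanpy 1.11.5, 2000 variable genes, 30 components, 15 neighbours, Leiden resolution 1) and named from marker lists. No doublet caller was run. Counts were summed per plate and class (at least 5 cells) and tested with edgeR 4.0.16 (quasi-likelihood, trimmed-mean scaling, all groups in one fit per class, R 4.3.3), with Benjamini-Hochberg adjustment over all genes at 0.05. DESeq2 1.42.0 was an alternative. The fit was tested on simulated data. Isoform shares needed 20 UMIs per pair and were compared by exact permutation (scipy 1.17.1). Intervals cover counting error only.

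Named genes were the 15 highest members in sham cardiomyocyte-like cells, the 5 largest calls per direction and comparison, the isoform sets, the catalytic core, the 5 highest members per class, and lists of neighbouring genes. A gene that this rule also takes is not reported here.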

Additional observations from a re-analysis of the deposited data

Results flagged for a closer look

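In 12 of 84 groups of plates the highest or lowest plate stood apart from the others, where chance flags about 1 in 20. In cardiomyocyte-like cells of sham day 14, replicate 5 was highest in summed member share (8.57% of nuclear UMIs) and in complex I (2.59%), complex III (0.904%) and complex V (3.08%), and its Rn45s share was 3.27%. In sham day 1 the lowest complex I share was 1.48%. In endothelial-like cells the lowest complex V share in sham day 14 was 0.665% and the lowest complex I share in MI was 0.305%. Complex IV was highest at 0.333% in macrophage-like cells of MI and at 0.357% in neutrophil-like cells of IR day 1, and lowest at 0.126% in fibroblast-like cells of IR day 3. Cox6a2 made up 100% of its pair in 1 IR day 3 plate of 5 cells, and Cox8b 62.7% of its pair in 1 sham day 14 plate.

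The change after MI differed between cardiomyocyte-like and endothelial-like cells for 9 members, by the test of the difference itself. It was higher in cardiomyocyte-like cells, on the log2 scale, by 7.25 for Cox8b, 5.66 for Cox6a2, 4.36 for Cox7a1, 1.94 for Atp5g1, 1.53 for Ndufc1, 1.51 for Ndufa6, 1.47 for Ndufs6, 1.47 for Uqcrfs1 and 1.44 for Atp5j2. Cardiomyocyte markers fell in the endothelial-like wells of MI, and their part in these differences was not tested.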

How the results depend on the processing

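In cardiomyocyte-like cells the members called were, for MI against sham, 11 with no filter on low counts. For IR day 3 against sham they were 8 with DESeq2, 1 with no filter, 13 with at least 10 cells per plate and 1 without the cluster led by Sprr1a. For MI against IR day 3 they were 12 with DESeq2, 12 with the relative log expression scaling, 3 with no filter, 11 in wells of at least 2000 UMIs and 16 in the cluster led by Sprr1a alone. For IR day 14 against IR day 3 they were 3 with DESeq2 and 0 in that cluster alone. For IR day 1 they were 4 with DESeq2, 2 with the relative scaling, 8 in wells of at least 2000 UMIs and 0 in that cluster, where Ndufs1 was at 0.033 (log2). In endothelial-like cells, MI gave 39 with no filter and 4 in wells under 1% marker UMIs, and IR day 1 gave 18 with at least 10 cells and 2 in such wells. In such wells the changes of Atp5a1 (0.22), Atp5b (0.73), Atp5g3 (0.14), Ndufv2 (0.54), Uqcrc1 (0.33) and Uqcrfs1 (0.20) in MI, and of Ndufa4 (0.069) in IR day 1, turned upward. In macrophage-like cells, MI against IR day 3 gave 6 with DESeq2, 3 with the relative scaling, no filter or at least 10 cells, and 2 with members kept in the clustering or in wells under 1%, and IR day 3 against IR day 1 gave 3 with no filter and 6 in such wells. Fibroblast-like cells gave 9 with DESeq2 or no filter and 10 with at least 10 cells, and the class difference after MI 4 with the relative scaling or no filter. The marker limit and the Sprr1a cluster were chosen after seeing the data. The cause of these shifts was not tested. With at least 10 cells no MI plate of cardiomyocyte-like cells remained, so that alternative was not run there.

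Replicate numbers did not pair the plates: 2 of 26 cardiomyocyte-like pairs of plates correlated above 0.1. With a replicate block the counts were 6 for MI, 0 for IR day 3, 0 for MI against IR day 3, 0 for IR day 14 against IR day 3 and 12 for IR day 1 in cardiomyocyte-like cells, 9 for IR day 1 in endothelial-like cells, 2 for IR day 3 against IR day 1 in macrophage-like cells and 1 in fibroblast-like cells.

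Leaving out each plate gave 4 to 19 calls for MI, 1 to 10 for IR day 3, 1 to 11 for MI against IR day 3, 0 to 1 for IR day 14 against IR day 3 and 7 to 21 for IR day 1 in cardiomyocyte-like cells, 50 to 61 and 22 to 39 for MI and IR day 1 in endothelial-like cells, 4 to 11 and 1 to 2 for IR day 3 against IR day 1 and MI against IR day 3 in macrophage-like cells, 2 to 4 in fibroblast-like cells and 3 to 10 for the class difference. Isoform shares then moved, in points, from −17.7 to −14.1 (Cox8b) and −1.60 to −0.84 (Cox6a2) for IR day 3 against sham. For IR day 14 against sham day 14 they were −1.02 to 4.27 (Cox8b), −0.59 to 0.11 (Cox6a2) and −3.44 to 1.01 (Cox7a1), and for IR day 14 against IR day 3 −0.79 to 4.27 (Cox7a1). With at least 10 cells per plate, IR day 3 against sham gave −15.6 (Cox8b) and −1.47 (Cox6a2), both now past the threshold, and Cox6a2 in IR day 14 against sham day 14 was 0.041. The summed share without Rn45s was 7.07%, 7.54%, 5.88% and 6.77% in cardiomyocyte-like cells of sham day 1, sham day 14, IR day 1 and IR day 14, and 2.55% and 2.69% in endothelial-like cells of sham day 1 and IR day 3. In wells of at least 2000 UMIs it was 3.46% in cardiomyocyte-like cells of IR day 1.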
